A study of Rattus norvegicus with 24 samples.

Results

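The genes described here build ribosomes in the nucleolus. They encode subunits and initiation factors of RNA polymerase I and the nucleolar proteins that process ribosomal RNA (rRNA) and assemble the 2 ribosomal subunits. The set is a list of 40 gene symbols, and its rule names no measured value, although earlier results of these data were known when it was chosen. A probe set (a group of short array probes for 1 transcript) belonged to it when the array platform's annotation gave it 1 symbol only and that symbol was in the set. By this rule 39 of the 40 genes were measured, of 14217 genes on the array with such a probe set. Npm1 was left out because its probe sets carry the symbol of a second gene as well. The 39 genes had 55 probe sets, of which 51 were bright enough to be tested. For the 10 genes with several probe sets the brightest stands for the gene, and all 39 genes had a tested one.

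RNA polymerase I transcribes 1 long precursor from the repeated rRNA genes, and this step sets much of a cell's capacity to grow. Small nucleolar ribonucleoproteins (snoRNPs) then modify the precursor, and separate groups of assembly factors cut it and fold it into the small and the large subunit. In the thyroid, a gland that makes a very large secreted protein and can enlarge under thyrotropin, ribosome production is part of the machinery of growth and of thyroglobulin synthesis.

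Total RNA was measured on 24 Affymetrix expression arrays, from the thyroids of adult male Sprague-Dawley rats, in 8 groups of 3 samples. Controls had normal food and water. A perchlorate group had normal food and drinking water with 95 mg of potassium perchlorate per liter for 1 or 14 days. A diet group had iodine-deficient food for 2 months plus 1 or 14 days and normal water. The last group had the deficient food for as long and the perchlorate water for its final 1 or 14 days. Perchlorate is an anion that competes with iodide for uptake by the sodium-iodide symporter. The labels do not say whether each sample is its own animal, so the spread between the 3 samples of a group, on which all p-values rest, may be partly technical. Samples are named here by the number in their title.

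Values are log2(intensity + 16) after quantile normalization, and every fold change is on that scale. A gene is called at an adjusted p under 0.05 in limma's moderated test over 18625 probe sets. Replicate arrays correlated at 0.851 to 0.980 across probe sets, with a median of 0.973. Sample 18 (perchlorate, day 1) stood apart, with a median difference of 0.676, in either direction, from each gene's median over the 24 arrays. Sample 22 (control, day 1) followed with 0.263, and the other 22 arrays lay between 0.107 and 0.188. Follicular cell markers were high in every group: the group means of Tg, the thyroglobulin gene, ran from 13.66 to 13.95. Pth, the parathyroid hormone gene, also lay between 13.64 and 14.01, so the samples held parathyroid tissue too.

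At day 14 most of the 39 genes lay below the controls in all 3 treated groups. The median log2 fold change was -0.27 with perchlorate, -0.25 with the deficient diet and -0.34 with both. Over all probe sets tested the medians were -0.04, -0.02 and -0.06. The medians of the 39 genes stayed below 0 under all alternatives run, at -0.30 to -0.17 with perchlorate, -0.31 to -0.10 with the diet and -0.40 to -0.27 with both. With perchlorate 35 of 39 genes were below 0, against 57.2% of all probe sets. With the diet 34 of 39 were below 0, against 54% of all. With both treatments it was 37 of 39, against 58.3% of all. These 3 comparisons share the same 3 control samples, so they are not independent of each other. Whether less of these transcripts per cell or fewer of the cells that carry them gave the lower signal cannot be told apart in whole tissue.

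**Figure D1:**
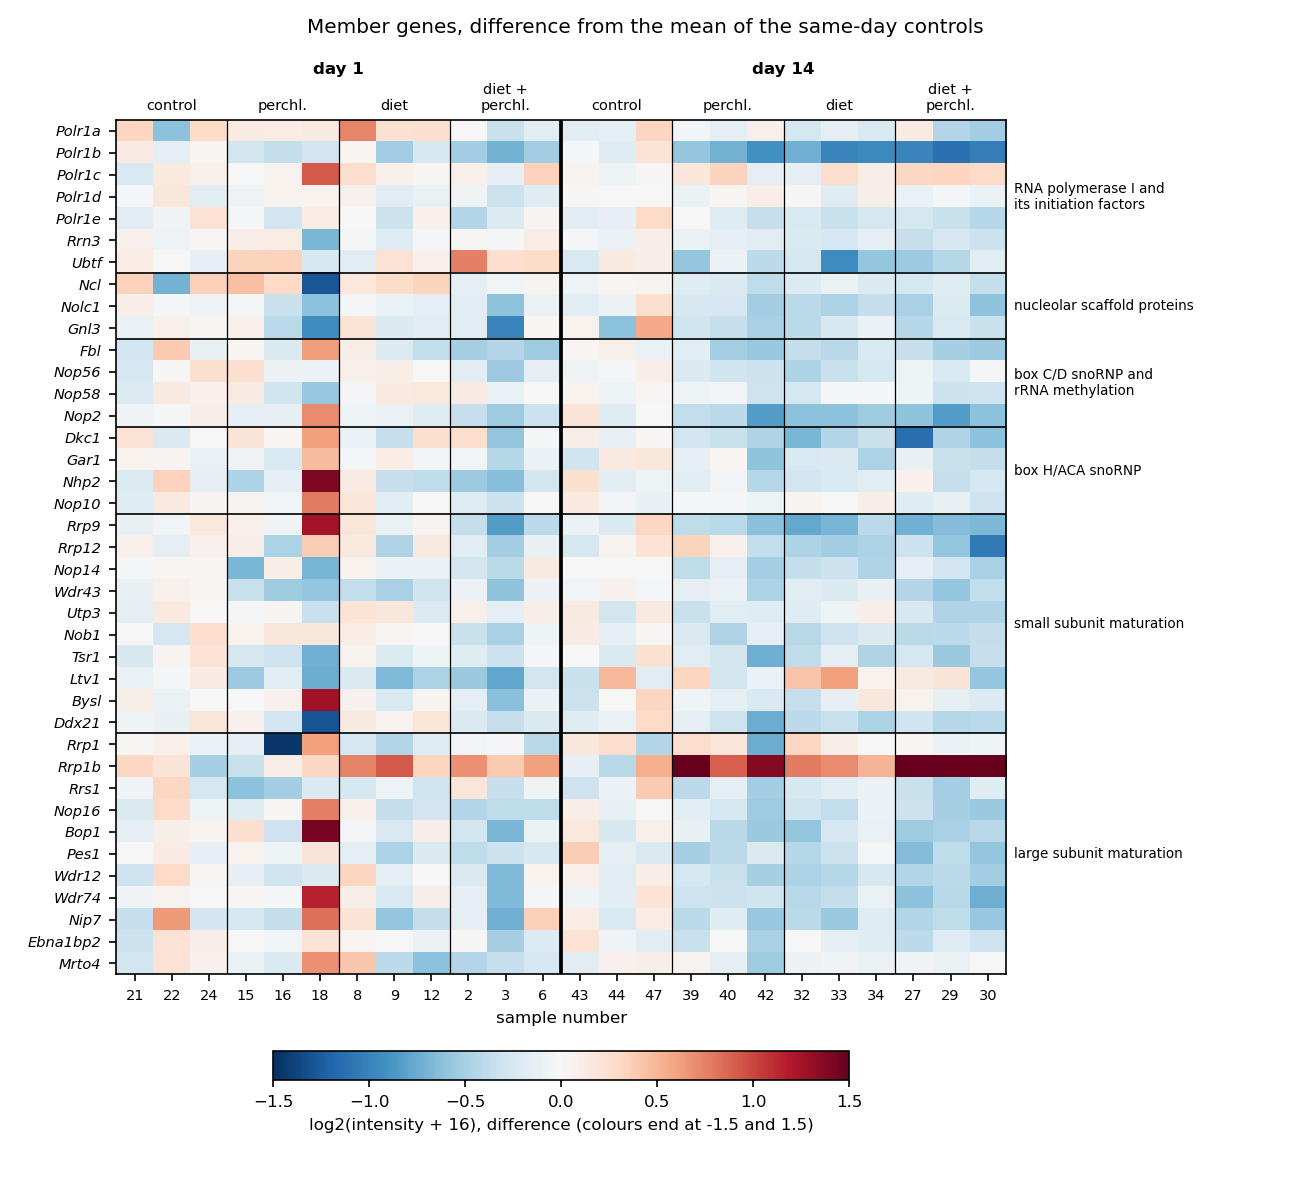
Each row is 1 of the 39 genes, grouped by role, and each column is 1 sample; colour gives log2(intensity + 16) minus the mean of the 3 controls of the same day, with colours ending at -1.5 and 1.5. The day 14 treated columns are mostly blue, with Polr1b lowest of the 39 on the mean of each treated group though not in every column, Rrp1b is red, and sample 18 at day 1 differs from its 2 group mates in both directions.

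Single genes were tested next. With both treatments at day 14, 5 of 39 genes were called, against 8.85% of all probe sets. This count ran from 2 to 17 under the alternatives, and the share of all probe sets moved with it. It was 2 without sample 27, 30 or 43 (4.34%, 4.95% and 5.56% of all) and 3 without control sample 44 or 47 (5.48% and 5.89%). It was 2 on the values as deposited (6.24%), 12 in a fit of only the groups compared (17.2%), 15 without samples 18 and 22 (17.7%) and 17 with array weights (23.5%). Polr1b, Nop2, Dkc1 and Pes1 were lower, where 2.75% of all probe sets were called lower. Rrp1b was higher, where 6.1% of all were called higher. With perchlorate alone 2 of 39 were called, Polr1b lower and Rrp1b higher, against 3.57% of all (2.9% higher and 0.671% lower). With the diet alone 1 of 39 was called, Polr1b, lower, against 0.22% of all (0.0268% lower). An overall test of any difference among the 8 groups called 2 of 39, Polr1b (adjusted p = 0.000618) and Rrp1b (adjusted p = 0.0017), against 7.8% of all. This count was 13 with array weights (26.5% of all) and 7 without samples 18 and 22 (14.4%).

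More genes separated the groups array by array than passed the test. With both treatments 24 of 39 genes had all 3 treated arrays below all 3 controls, against 20.7% of all probe sets. With the diet it was 18 of 39, against 11.2%, and with perchlorate 14 of 39, against 13.4%. With the values as deposited, without quantile normalization, these counts were 17, 6 and 9, against 13.4%, 3.04% and 6.03% of all probe sets. That scaling moves the median of all probe sets to 0.13 with the diet at day 14. The median of the 39 genes minus that of all probe sets was -0.23 with the diet under either scaling.

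**Figure D2:**
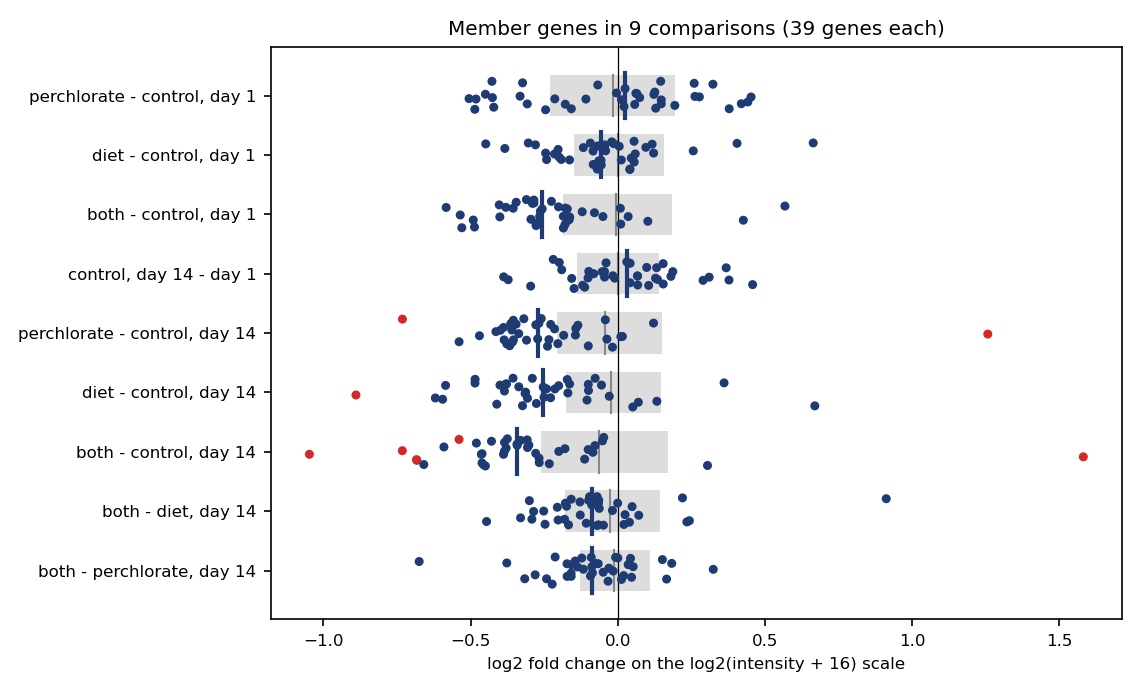
Dots are the log2 fold changes of the 39 genes in 9 comparisons, with red dots for genes called at an adjusted p under 0.05; the thick bar is their median and the grey box the middle 50% of all 18625 probe sets, with its median as a thin line. In the 3 comparisons of treated groups with the day 14 controls the thick bar lies at -0.27, -0.25 and -0.34, left of the grey box.

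Among the 7 genes of the polymerase and its initiation factors, Polr1b, the second-largest subunit of RNA polymerase I, stood lowest in every treated group at day 14. In the day 14 controls Polr1b measured 8.99, 8.83 and 9.23 in samples 43, 44 and 47. It measured 8.44, 8.30 and 8.12 with perchlorate (samples 39, 40 and 42) and 8.29, 8.03 and 8.06 with the diet (samples 32, 33 and 34). With both it measured 8.03, 7.90 and 7.98 in samples 27, 29 and 30. All 9 treated arrays therefore lay below all 3 controls. Polr1b fell by 0.73 with perchlorate (SE 0.15, adjusted p = 0.00944), by 0.89 with the diet (SE 0.15, adjusted p = 0.0214) and by 1.05 with both (SE 0.15, adjusted p = 0.000212). The last is 2.07-fold lower.

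At day 1 Polr1b measured 9.03, 8.76 and 8.95 in the controls (samples 21, 22 and 24) and 8.64, 8.56 and 8.62 with perchlorate (samples 15, 16 and 18). It measured 8.94, 8.39 and 8.68 with the diet (samples 8, 9 and 12) and 8.39, 8.21 and 8.39 with both (samples 2, 3 and 6). The perchlorate arrays and the arrays of both treatments lay below all 3 controls, while those of the diet overlapped them. None of these was called: the fold changes were -0.31 (adjusted p = 0.502), -0.24 (adjusted p = 0.937) and -0.58 (adjusted p = 0.0976). With the 2 days averaged, the diet gave -0.57 (adjusted p = 0.0133), where 1.03% of all probe sets were called, and Polr1b was the 1 gene of 39 called. The fold change with perchlorate at day 14 less the one at day 1 was -0.42 (SE 0.22, adjusted p = 0.443), so the days were not shown to differ.

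Whether the 2 treatments added up was tested as an interaction at day 14. For Polr1b it was 0.57 (SE 0.22), with an unadjusted p of 0.0160 and an adjusted p of 1.00, which is no call. The call with the diet alone was lost without diet sample 33 or 34 or control sample 43 or 47, where the adjusted p ran from 0.0587 to 0.158. The call with perchlorate alone was lost without perchlorate sample 42 or control sample 47 (adjusted p = 0.0706 and 0.0591). On the values as deposited the adjusted p was 0.0690 with the diet and 0.0536 with perchlorate, while with both treatments the call held under all 17 alternatives, at an adjusted p of at most 0.0025.

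The RefSeq entry for Polr1b on assembly GRCr8 gives the 250 bases before its transcription start at chr3:136786880-136787129, plus strand. They are shown because Polr1b is the gene with the lowest fold change of the set, and they hold 9 CpG pairs and no E-box, the 6-letter motif CACGTG described further on.
Polr1b: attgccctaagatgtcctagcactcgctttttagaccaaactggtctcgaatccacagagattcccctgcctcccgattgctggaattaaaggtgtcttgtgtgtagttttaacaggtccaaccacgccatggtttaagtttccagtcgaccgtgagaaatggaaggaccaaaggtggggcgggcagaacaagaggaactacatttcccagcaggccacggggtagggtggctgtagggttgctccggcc

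The other subunits did not pass the test at day 14. Polr1a, the largest subunit and the other part of the catalytic centre, lay at -0.04 with perchlorate, -0.21 with the diet and -0.28 with both (SE 0.23). Polr1e, a subunit used in initiation, lay at -0.18, -0.28 and -0.34 (SE 0.17). Polr1d, which is shared with RNA polymerase III, lay at 0.01, -0.03 and -0.08 (SE 0.11). A dimmer tested probe set of Polr1d overlapped the controls in all 3 treated groups. Rrn3, the factor that carries growth signals to the polymerase, lay at -0.14, -0.20 and -0.31 (SE 0.15), and its arrays lay below the controls without overlap in all 3 groups. Its lowest adjusted p of the 3 was 0.246. The second tested probe set of Rrn3 lay below the controls with both treatments. It overlapped them with perchlorate (9.22 in sample 42 against 9.01 in control sample 44) and with the diet (9.12 in sample 34).

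Polr1c, the other subunit shared with RNA polymerase III, was among the 3 highest fold changes with perchlorate and among the 5 genes above 0 with the diet. It measured 10.76, 10.64 and 10.72 in the day 14 controls, 10.87, 11.04 and 10.57 with perchlorate, and 10.56, 10.97 and 10.80 with the diet. With both treatments it measured 11.01, 11.03 and 10.997, all above the controls. At day 1 it measured 10.67, 11.05 and 10.98 in controls, 10.89, 10.95 and 11.82 with perchlorate, 11.16, 10.97 and 10.92 with the diet, and 10.97, 10.78 and 11.25 with both. The day 1 groups overlap, and sample 18 of the perchlorate group is the highest array. The day 14 fold changes were 0.12, 0.07 and 0.31 (SE 0.20, adjusted p = 0.891, 0.988 and 0.402), and without diet sample 33 that of the diet turned to -0.03.

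Ubtf, which binds along the rRNA genes and keeps them open, was 1 of the 3 lowest fold changes with the diet. Its day 14 controls measured 8.96, 9.33 and 9.27. It measured 8.93, 8.24 and 8.61 with the diet, 8.59, 9.10 and 8.79 with perchlorate, and 8.64, 8.76 and 9.03 with both. The diet arrays lay below the controls, and the other treated arrays overlapped them. At day 1 Ubtf measured 8.84, 8.73 and 8.61 in controls, 9.06, 9.07 and 8.49 with perchlorate, 8.58, 8.95 and 8.80 with the diet, and 9.48, 8.98 and 9.01 with both, where all 3 arrays lay above the controls. The day 14 fold changes were -0.60 with the diet (SE 0.21, adjusted p = 0.272), -0.36 with perchlorate (adjusted p = 0.486) and -0.38 with both (adjusted p = 0.310). Its probe sets disagreed: with the diet the other tested ones gave 0.42 and -0.20, neither called. With both treatments those others overlapped the controls on both days.

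Of the nucleolar scaffold proteins, Ncl (nucleolin), Nolc1 (a chaperone of snoRNPs) and Gnl3 (the GTPase nucleostemin) were measured and none was called. All 3 were below 0 in each treated group at day 14. Nolc1 lay at -0.34 with perchlorate, -0.41 with the diet and -0.43 with both (SE 0.17, adjusted p = 0.389, 0.418 and 0.135), with no overlap with the controls in any of them. Ncl lay at -0.26, -0.17 and -0.27 (SE 0.30), also without overlap. Gnl3 lay at -0.38, -0.24 and -0.33 (SE 0.27), and its arrays overlapped the controls. The second tested probe set of Nolc1 overlapped the controls with perchlorate and with the diet and lay below them with both.

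The box C/D snoRNP proteins guide and carry out methylation of rRNA. Nop2, an rRNA cytosine methyltransferase of the large subunit grouped with them, measured 9.87, 9.50 and 9.67 in the day 14 controls. It measured 9.31, 9.27 and 8.83 with perchlorate, 9.07, 9.07 and 9.14 with the diet, and 9.08, 8.84 and 9.06 with both. All 9 treated arrays lay below all 3 controls. Nop2 fell by 0.68 with both treatments (SE 0.19, adjusted p = 0.0223), a 1.61-fold lower value. It lay at -0.54 with perchlorate (adjusted p = 0.127) and -0.58 with the diet (adjusted p = 0.218), which are not calls.

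At day 1 Nop2 measured 9.44, 9.46 and 9.59 in controls, 9.36, 9.37 and 10.20 with perchlorate, 9.42, 9.39 and 9.32 with the diet, and 9.15, 8.96 and 9.17 with both. The arrays of the diet and of both treatments lay below the controls, and sample 18 lay above every other array of Nop2. No day 1 comparison of Nop2 was called. The day 14 call with both treatments was lost without any 1 of samples 27, 29, 30, 43 or 47 (adjusted p = 0.0570 to 0.108) and on the values as deposited (adjusted p = 0.0534). Without samples 18 and 22 together, Nop2 was called with the diet too (-0.58, adjusted p = 0.0286) and with perchlorate (-0.54, adjusted p = 0.0127).

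The 3 core box C/D proteins that are in the set were below 0 in every treated group at day 14 and none was called. Fbl, fibrillarin, the methyltransferase of the particle, lay at -0.41 with perchlorate, -0.34 with the diet and -0.46 with both (SE 0.19, adjusted p = 0.322, 0.649 and 0.154), with no overlap with the controls. Nop56 lay at -0.28, -0.36 and -0.11 (SE 0.15) and Nop58 at -0.14, -0.10 and -0.23 (SE 0.16). A dimmer tested probe set of Nop56 lay below the controls with perchlorate and overlapped them with the diet and with both.

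The box H/ACA snoRNP converts uridine in rRNA to pseudouridine. Dkc1, dyskerin, its catalytic subunit, measured 9.48, 9.28 and 9.41 in the day 14 controls. It measured 9.11, 9.06 and 8.94 with perchlorate, 8.70, 8.95 and 9.06 with the diet, and 8.26, 8.93 and 8.78 with both. Every treated array lay below every control, and sample 27 was the lowest. Dkc1 fell by 0.73 with both (SE 0.22, adjusted p = 0.0387), a 1.66-fold lower value. It lay at -0.35 with perchlorate (adjusted p = 0.536) and -0.48 with the diet (adjusted p = 0.479).

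At day 1 Dkc1 measured 9.32, 8.89 and 9.10 in controls, 9.30, 9.13 and 9.71 with perchlorate, 9.002, 8.75 and 9.36 with the diet, and 9.36, 8.51 and 9.07 with both, and each treated group overlapped the controls. The day 14 call was lost without sample 27, 30, 43, 44 or 47 (adjusted p = 0.0724 to 0.239), on the values as deposited (adjusted p = 0.0559) and with no filter on dim probe sets (adjusted p = 0.0560). The structural partners of dyskerin were not called. Gar1 lay at -0.23 with perchlorate, -0.31 with the diet and -0.27 with both (SE 0.19), Nhp2 at -0.21, -0.23 and -0.18 (SE 0.31), and Nop10 at -0.04, 0.05 and -0.20 (SE 0.16).

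**Figure D3:**
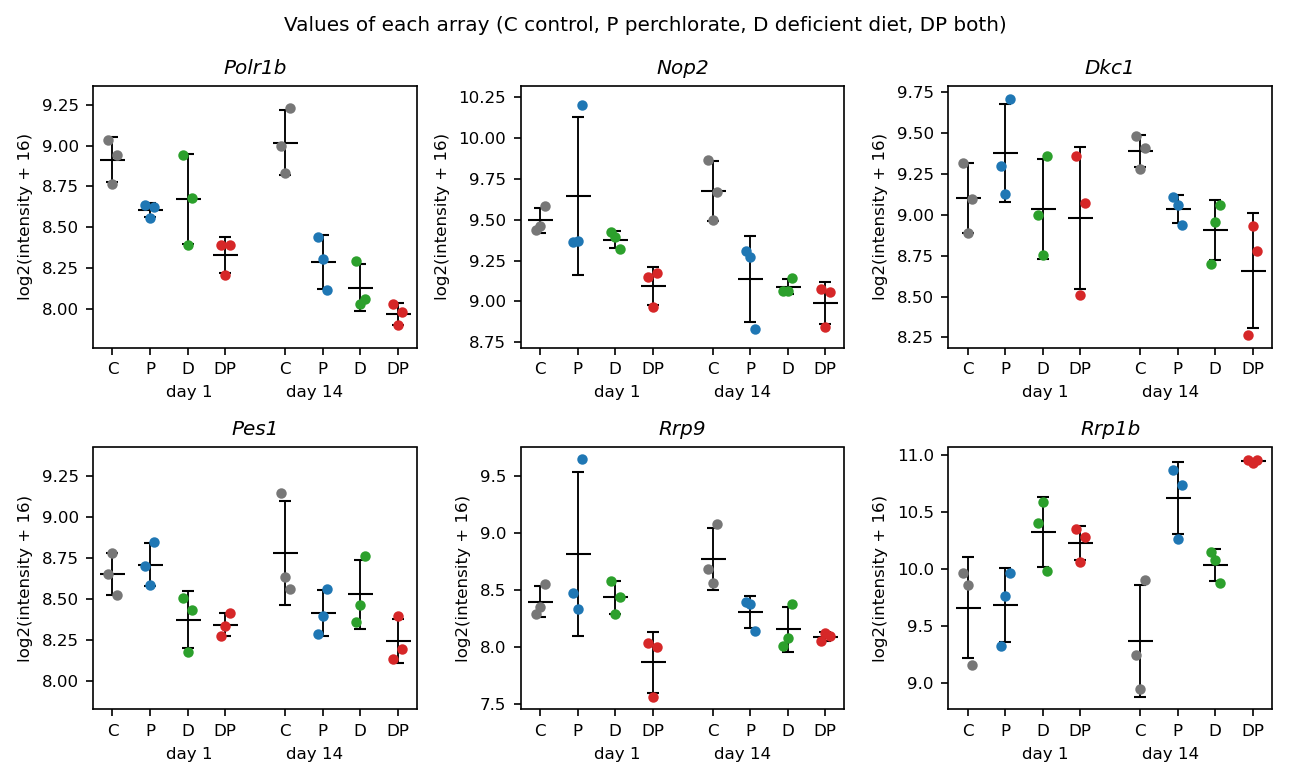
Dots are single arrays on the log2(intensity + 16) scale for 6 genes in 8 groups (C control, P perchlorate, D deficient diet, DP both), with the mean as a bar and the SD over 3 arrays as whiskers. At day 14 the treated arrays of Polr1b, Nop2, Dkc1 and Rrp9 lie below the controls, those of Rrp1b lie above except for an overlap with the diet, and sample 18 is the high dot of the day 1 perchlorate group for Nop2 and Rrp9.

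No gene of small subunit maturation was called in any comparison, although all 10 were below 0 with both treatments at day 14, with 6 of 10 at an unadjusted p under 0.05, against 21.7% of all probe sets. Rrp9, a protein specific to the U3 snoRNP that directs the first cuts of the precursor, was 1 of the 3 lowest fold changes with perchlorate and with the diet. It measured 8.68, 8.56 and 9.08 in the day 14 controls, 8.40, 8.37 and 8.14 with perchlorate, 8.01, 8.08 and 8.37 with the diet, and 8.05, 8.13 and 8.10 with both. All 9 treated arrays lay below the controls. At day 1 it measured 8.29, 8.35 and 8.55 in controls, 8.47, 8.33 and 9.64 with perchlorate, 8.58, 8.29 and 8.44 with the diet, and 8.03, 7.56 and 8.003 with both. The last were below the controls and sample 18 was far above them. The day 14 fold changes were -0.47 with perchlorate (SE 0.24, adjusted p = 0.404), -0.62 with the diet (adjusted p = 0.365) and -0.68 with both (adjusted p = 0.0901), the last called without samples 18 and 22 (adjusted p = 0.0055).

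Rrp12, which takes part in export of the small subunit precursor, was among the 3 highest fold changes with perchlorate, though near 0. It measured 7.39, 7.71 and 7.87 in the day 14 controls and 7.997, 7.73 and 7.29 with perchlorate. It measured 7.20, 7.14 and 7.18 with the diet and 7.33, 7.07 and 6.59 with both, all 6 below the controls. The perchlorate arrays overlapped the controls. At day 1 it measured 7.71, 7.49 and 7.69 in controls, 7.73, 7.15 and 7.99 with perchlorate, 7.77, 7.18 and 7.76 with the diet, and 7.47, 7.10 and 7.51 with both. The fold changes at day 14 were 0.02, -0.49 and -0.66 (SE 0.24, adjusted p = 0.995, 0.541 and 0.0941). Its other probe sets gave -0.55 and -0.27 with perchlorate, and the mean over all its probe sets gave -0.27, so its direction with perchlorate depends on the probe set. Without samples 18 and 22 Rrp12 was called with both treatments (-0.66, adjusted p = 0.0487).

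Ltv1, a late factor that leaves the small subunit precursor in the cytoplasm, was among the 3 highest fold changes with the diet. It measured 8.06, 8.88 and 8.23 in the day 14 controls, 8.71, 8.11 and 8.29 with perchlorate, 8.82, 9.001 and 8.44 with the diet, and 8.52, 8.59 and 7.81 with both. All these groups overlap. At day 1 it measured 8.68, 8.76 and 8.90 in controls, 8.24, 8.61 and 8.03 with perchlorate, 8.56, 8.12 and 8.31 with the diet, and 8.22, 8.005 and 8.51 with both. At that day every treated array lay below every control. The day 14 fold changes were -0.02, 0.36 and -0.08 (SE 0.24, adjusted p of 0.741 or more), and those with perchlorate and with both changed sign on leaving out 1 array.

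The other 7 small subunit genes lay between -0.06 and -0.46 in the 3 day 14 comparisons. Wdr43, a component of the complex that makes the first cuts, lay lowest with both (-0.46, SE 0.15, adjusted p = 0.0547) and was called without samples 18 and 22. Its second tested probe set, a dimmer one, overlapped the day 14 controls with both treatments, at 7.52, 7.20 and 7.29 against 7.54, 7.36 and 7.37. Tsr1, a GTPase-like late factor, lay at -0.39 with perchlorate, -0.32 with the diet and -0.39 with both (SE 0.17). Nob1, the endonuclease that makes the final cut of small subunit rRNA, lay at -0.27, -0.31 and -0.38 (SE 0.15). Ddx21, an RNA helicase, lay at -0.40, -0.40 and -0.38 (SE 0.23), and Nop14 at -0.35, -0.38 and -0.31 (SE 0.19). A dimmer tested probe set of Ddx21 overlapped the day 14 controls in all 3 treated groups. Utp3 lay at -0.23, -0.06 and -0.39 (SE 0.15) and Bysl at -0.14, -0.10 and -0.10 (SE 0.25).

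Rrp1b, a nucleolar protein of large subunit rRNA processing that is also known to bind chromatin, was the 1 gene of the set called higher. It measured 9.24, 8.95 and 9.90 in the day 14 controls. It measured 10.86, 10.26 and 10.74 with perchlorate, 10.15, 10.08 and 9.88 with the diet, and 10.95, 10.93 and 10.96 with both. The arrays with perchlorate and with both lay above all controls, while diet sample 34 lay just under control sample 47. Rrp1b rose by 1.26 with perchlorate (SE 0.24, adjusted p = 0.00452), 2.39-fold, and by 1.58 with both (SE 0.24, adjusted p = 0.000292), 2.99-fold. With the diet it lay at 0.67 (SE 0.24, adjusted p = 0.299).

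At day 1 Rrp1b measured 9.97, 9.86 and 9.16 in controls and 9.33, 9.76 and 9.97 with perchlorate, which overlap. It measured 10.41, 10.58 and 9.98 with the diet and 10.35, 10.06 and 10.28 with both, all above the controls. The fold changes were 0.02, 0.66 and 0.57 (adjusted p = 0.975, 0.636 and 0.381). The fold change with perchlorate at day 14 less the one at day 1 was 1.23 (SE 0.34, adjusted p = 0.0982), with an unadjusted p of 0.00162. Perchlorate added to the diet at day 14 lay at 0.91 over the diet alone (adjusted p = 0.143) without overlap, and the diet added to perchlorate lay at 0.32 over perchlorate alone (adjusted p = 1.00).

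The second tested probe set of Rrp1b was called higher with both treatments (0.74, adjusted p = 0.0213) and lay at 0.65 with perchlorate (adjusted p = 0.0770). A dimmer probe set of the gene was not tested. The mean over its probe sets kept the call with both (0.79, adjusted p = 0.0456) and lost it with perchlorate (0.82, adjusted p = 0.0710), which was the 1 alternative of 17 that did. In RefSeq on GRCr8 the 250 bases before its start are at chr20:10122575-10122824, plus strand. They are shown for contrast with those of Polr1b, since the genes moved in opposite directions, and they hold 23 CpG pairs and no E-box.
Rrp1b: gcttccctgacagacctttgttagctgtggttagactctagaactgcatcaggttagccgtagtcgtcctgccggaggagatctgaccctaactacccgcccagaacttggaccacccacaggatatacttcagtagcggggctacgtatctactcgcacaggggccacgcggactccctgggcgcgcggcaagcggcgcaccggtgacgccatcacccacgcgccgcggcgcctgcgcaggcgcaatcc

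Rrp1, the paralogue of Rrp1b, on the same chromosome, was not called in any comparison. It measured 9.11, 9.21 and 8.51 in the day 14 controls, 9.21, 9.12 and 8.20 with perchlorate, 9.26, 9.04 and 8.94 with the diet, and 8.96, 8.85 and 8.88 with both. At day 1 it measured 9.34, 9.40 and 9.22 in controls, 9.17, 7.86 and 9.93 with perchlorate, 9.05, 8.87 and 9.12 with the diet, and 9.28, 9.29 and 8.90 with both. The day 14 groups overlap, and the widest spread is that of the day 1 perchlorate group, between samples 16 and 18. The day 14 fold changes were -0.10, 0.13 and -0.05 (SE 0.34, adjusted p of 0.960 or more), and each changed sign on leaving out 1 array.

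Pes1, Bop1 and Wdr12 form a complex needed for large subunit rRNA maturation. Pes1 measured 9.15, 8.64 and 8.56 in the day 14 controls, 8.29, 8.39 and 8.56 with perchlorate, 8.36, 8.46 and 8.76 with the diet, and 8.14, 8.39 and 8.19 with both. The arrays with both lay below all controls, while the other groups overlapped them. At day 1 it measured 8.65, 8.78 and 8.53 in controls, 8.70, 8.58 and 8.85 with perchlorate, 8.51, 8.18 and 8.43 with the diet, and 8.27, 8.34 and 8.42 with both, the last 2 groups below the controls. Pes1 fell by 0.54 with both at day 14 (SE 0.17, adjusted p = 0.0442), and lay at -0.37 with perchlorate (adjusted p = 0.299) and -0.25 with the diet (adjusted p = 0.722).

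The call of Pes1 was the least stable of the 5. It was lost without sample 27, 30, 43 or 44 (adjusted p = 0.0614 to 0.258), on the values as deposited (0.154), with arrays centred on their medians (0.0512), with no filter on dim probe sets (0.0635) and in a fit of only the groups compared (0.0663). Its partners were not called. Wdr12 lay at -0.36 with perchlorate, -0.38 with the diet and -0.45 with both (SE 0.18), without overlap with the controls in any of them. Bop1 lay at -0.36, -0.31 and -0.48 (SE 0.28).

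The 6 other large subunit factors were all below 0 in the 3 day 14 comparisons and none was called. Wdr74 lay at -0.31 with perchlorate, -0.29 with the diet and -0.59 with both (SE 0.23), and Nop16 at -0.32, -0.25 and -0.46 (SE 0.19). Nip7 lay at -0.39, -0.38 and -0.46 (SE 0.30) and Rrs1 at -0.35, -0.16 and -0.34 (SE 0.19). Ebna1bp2 lay at -0.27, -0.10 and -0.30 (SE 0.17) and Mrto4 at -0.20, -0.08 and -0.05 (SE 0.24). A dimmer tested probe set of Mrto4 lay below the controls with the diet and overlapped them with perchlorate and with both. Wdr74, Nop16, Nip7 and Ebna1bp2 had no overlap with the controls with both treatments.

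At day 1 the set had no calls against the controls. With perchlorate the median of the 39 genes was 0.02, and 17 of 39 were below 0 against 52% of all probe sets. With the diet it was -0.06, with 25 of 39 below 0 against 49.8%. With both it was -0.26, with 33 of 39 below 0 against 50.9%, and 10 of 39 had arrays below the controls without overlap against 9.76%. That count was 4 of 39 with perchlorate, against 4.21%, and 5 of 39 with the diet, against 6.54%. The count with both was 1 on the values as deposited (1.78% of all), 5 with arrays centred on their medians (6.63%), 18 without control sample 21 (15.8%) and 20 without sample 6 (14.6%). In limma 0 of 39 were called in each. At an unadjusted p under 0.05 there were 5 with perchlorate (all lower) against 10.1% of all, 2 with the diet (1 in each direction) against 5.85%, and 6 with both (5 lower) against 10.6%. The percentages called over all probe sets were 0%, 0.0537% and 0.601%. On the values as deposited the medians were -0.03, 0.10 and -0.01, where that scaling put the median of all probe sets at -0.08, 0.13 and 0.20. Without sample 3 the median with both was -0.11.

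Sample 18 weighed on the day 1 perchlorate values in both directions. The heatmap shows it above the controls for Rrp9, Nhp2, Bop1, Bysl, Wdr74 and Nop2 and below them for Ncl, Ddx21 and Gnl3. Without it the median with perchlorate at day 1 was -0.09. Markers of lymphocytes were high in 2 of the 3 arrays of this group, with a summed intensity of 7597 in sample 15 and 3535 in sample 18 against 458 to 762 in the day 1 controls. The part of these cells in the values was not tested.

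Comparisons among the treated groups, and between the days, gave no calls in the set by limma. For each, the share called and the count at an unadjusted p under 0.05 are given with those of all probe sets. Perchlorate added to the diet at day 14 gave a median of -0.09 with 0 of 39 called against 0.209%, and 2 of 39 at the unadjusted p against 7.96%. The diet added to perchlorate at day 14 gave -0.09 with 0 of 39 against 0.00537%, and 1 of 39 against 2.59%. Perchlorate added to the diet at day 1 gave -0.20 with 0 of 39 against 0.00537%, and 5 of 39 against 5.84%. At these 3 comparisons no gene of the set passed the adjusted threshold. The interaction at day 14 gave a median of 0.16 with 0 of 39 against 0.0161%, and 2 of 39 against 3.11%. Day 14 less day 1 for the perchlorate fold change gave -0.20 with 0 of 39 against 0.553%, and 4 of 39 against 12.3%. The controls of the 2 days differed by a median of 0.03, with 0 of 39 against 0%, and 2 of 39 against 4.11%.

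**Figure D4:**
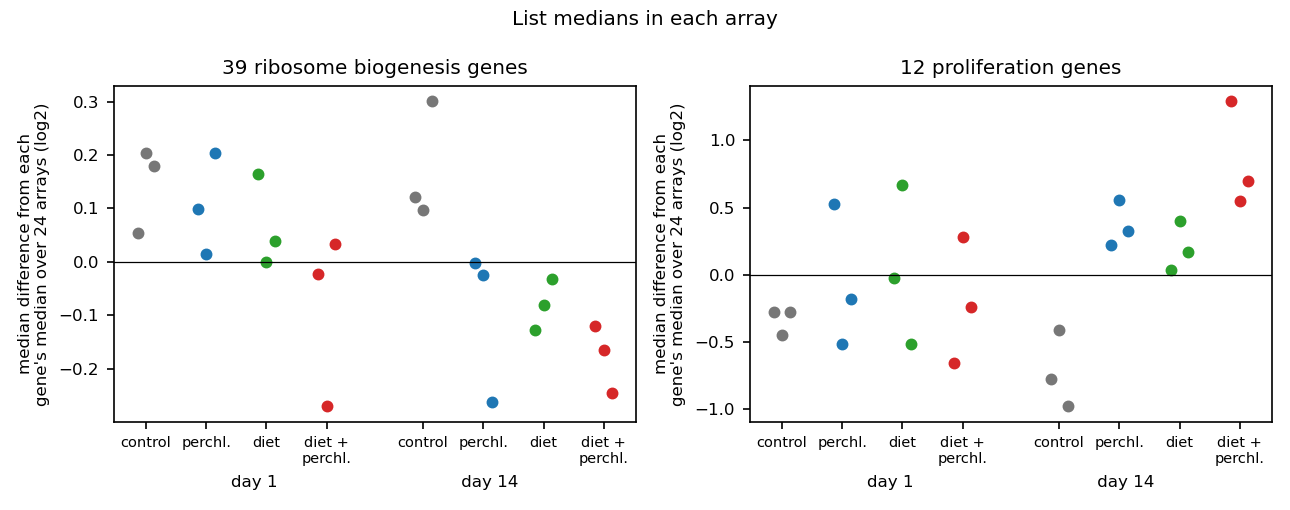
Each dot is 1 array: the median over the 39 genes (left) or over 12 proliferation genes (right) of the difference from each gene's own median over all 24 arrays, in log2 units. At day 14 the 39 genes lie at 0.10 to 0.30 in the controls and at -0.26 to -0.00 in the 9 treated arrays, while the proliferation genes lie higher in the treated arrays.

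Markers of other cell types and of dividing cells were read in the same arrays. All 12 proliferation genes were measured, and 5 were called higher at day 14 with perchlorate and 10 with both. Over all probe sets 2.9% and 6.1% were called higher there. With the diet alone the median of the 12 was 1.13 and limma called 0. At an unadjusted p under 0.05 there were 7, all higher, against 5.7% of all probe sets higher at that p. Their summed intensity was 5342 to 6493 in the day 14 controls, 8081 to 8767 with perchlorate, 7872 to 8634 with the diet and 9645 to 12756 with both. The ribosome genes thus lay lower in the same arrays in which genes of the cell cycle lay higher.

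Over all probe sets at day 14, 2.9%, 0.193% and 6.1% were called higher with perchlorate, the diet and both, and 2.75% lower with both. Of the 9 endothelial markers measured, 4 were called higher with perchlorate and 7 with both, and their sum was 8645 to 12227 in controls, 17115 to 24007 with perchlorate, 14536 to 19735 with the diet and 22756 to 25007 with both. Of the 8 fibroblast markers 5, 1 and 6 were called higher with perchlorate, the diet and both, and their sum was 18260 to 28460 in controls, 30361 to 44774, 25717 to 34068 and 34102 to 43872. Of the 7 macrophage and mast cell markers tested 3, 0 and 5 were called higher by limma, with Kit below the filter. With the diet all 7 were higher at an unadjusted p under 0.05, against 5.7% of all probe sets. The list's sum was 1109 to 1323 in controls, 2268 to 4457, 2081 to 2785 and 2371 to 3933. All 7 C cell markers lay below 0, with 4 called lower with both, and their sum was 27716 to 32120 in controls, 15737 to 26565, 22093 to 25696 and 15384 to 24706. Both parathyroid markers, Pth and Casr, lay below 0, and Casr, the calcium-sensing receptor gene, was called lower with perchlorate (-1.56, adjusted p = 0.0396) and with both (-1.81, adjusted p = 0.00781). Their sum was 20764 to 21226 in controls, 15063 to 16677, 15856 to 17531 and 12304 to 17880.

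The lists of adipocytes, lymphocytes and skeletal muscle had no calls in limma at day 14. The summed intensity of the adipocyte list was 2929 to 4415 in controls, 1008 to 3869 with perchlorate, 1879 to 4940 with the diet and 1269 to 1734 with both. The last lay below the controls without overlap. There 3 of the 6 adipocyte genes tested had an unadjusted p under 0.05, all lower, against 10.2% of all probe sets lower at that p. The lymphocyte sum was 396 to 462 in controls, 598 to 811 with perchlorate, 474 to 1686 with the diet and 621 to 3412 with both. All 9 treated arrays lay above the controls, and the high values are those of diet sample 32 and of sample 29, which had both treatments. The skeletal muscle sum was 5846 to 6912 in controls and 5829 to 7492 with both, while it reached 19420 in perchlorate sample 42 and 19665 in diet sample 32. The part of these shifts in the values of the 39 genes was not tested.

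Of the 9 follicular cell markers measured, Slc5a5, the sodium-iodide symporter gene, was called higher in every treated group at day 14 (by 1.52 with perchlorate, 1.01 with the diet and 1.70 with both), and Foxe1, a follicular transcription factor, was called lower with both (-0.51, adjusted p = 0.0224). The summed intensity of the 9 was 50094 to 52588 in the day 14 controls, 52217 to 58539 with perchlorate, 51463 to 53072 with the diet and 52326 to 53969 with both. That sum is carried by the brightest genes. The median over the 9, each set against its own median over the 24 arrays, was -0.08 to -0.03 in the controls, -0.11 to 0.07 with perchlorate, -0.14 to -0.08 with the diet and -0.17 to -0.13 with both. By this measure the arrays with both treatments lay below the controls without overlap. Those of the diet lay only just under them, with the highest at -0.0783 against -0.0776 for the lowest control.

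Other genes of the same machinery had the same sign of shift. Over all probe sets 57.2%, 54% and 58.3% lay below 0 with perchlorate, the diet and both, which applies to each list that follows. Of 50 further small subunit factors, 45, 44 and 48 lay below 0 with perchlorate, the diet and both, with medians of -0.16, -0.21 and -0.30. With both treatments Utp18 fell by 0.95 (adjusted p = 0.00405), Aatf by 0.69 (adjusted p = 0.00979) and Rrp7a by 0.69 (adjusted p = 0.0172), 3 of 50 called against 2.75% of all probe sets. Rrp7a, a member of the complex around U3, was also the 1 such gene called for the perchlorate fold change at day 14 less that at day 1. The difference was -1.15 (adjusted p = 0.0417), and 0.553% of all probe sets were called there. With perchlorate Rrp7a lay at 0.58 at day 1 (adjusted p = 0.423) and at -0.56 at day 14 (adjusted p = 0.0903), neither called. The day 1 perchlorate group holds the array that stood apart, and the difference was not tested without that array. Of 47 further large subunit factors, 41, 41 and 44 lay below 0, with medians of -0.18, -0.15 and -0.25. With both treatments limma called 0 of the 47, and 10 had an unadjusted p under 0.05, against 21.7% of all probe sets. Rpf2, which brings a small ribosomal RNA into the large subunit, had the smallest p with perchlorate (-0.44, adjusted p = 0.175).

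Of 14 other polymerase I factors, 11, 10 and 12 lay below 0, and Mybbp1a, a nucleolar protein that binds transcription factors, fell by 0.67 with both (adjusted p = 0.0131). Of 12 exosome genes, which trim rRNA ends, 11, 9 and 11 lay below 0, and Exosc1 fell by 0.47 with both (adjusted p = 0.0476). Of 10 snoRNP assembly factors, 8, 8 and 10 lay below 0, and Shq1, the chaperone of dyskerin, fell by 0.72 with both (adjusted p = 0.00925). Each of these lists held 1 gene called lower with both, where 2.75% of all probe sets were.

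The 12 RNA polymerase III genes lay below 0 in 11, 12 and 12 cases, with medians of -0.23, -0.25 and -0.26, and Polr3e fell by 0.56 with both (adjusted p = 0.0334). The 8 RNA polymerase II subunits lay nearer to 0, with 5, 4 and 5 below 0 and medians of -0.09, -0.00 and -0.09. Limma called 0 of them, and 1 had an unadjusted p under 0.05 with both, against 21.7% of all probe sets. Polr2e, Polr2f, Polr2k and Polr2l, which are shared between polymerases, were counted with the other polymerase I factors and not here. Polr2c had the smallest p with perchlorate (-0.40, adjusted p = 0.387). Of 26 translation factors 24, 24 and 26 lay below 0, and Eef1d, an exchange factor of elongation, fell by 0.44 with both (adjusted p = 0.0228). Eef1g, another subunit of that factor, was called lower with both at day 1 (-0.38, adjusted p = 0.0428). Of 14 purine and pyrimidine synthesis genes 10, 12 and 11 lay below 0, and Prps2, which makes the sugar precursor of nucleotides, was called higher with both (1.42, adjusted p = 0.0206).

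The upstream regulators of ribosome production, which include Myc and Mtor, had medians of -0.08, -0.05 and -0.08. Of the 18, 10, 13 and 10 lay below 0, against 57.2%, 54% and 58.3% of all probe sets. In limma 0 of the 18 were called at day 14, and with both treatments 2 had an unadjusted p under 0.05, against 21.7% of all probe sets. Mycn, a member of the Myc family, had the smallest p with both (-0.69, adjusted p = 0.146) and Tsc1, a brake on mTOR, the smallest with perchlorate (-0.32, adjusted p = 0.369).

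**Figure D5:**
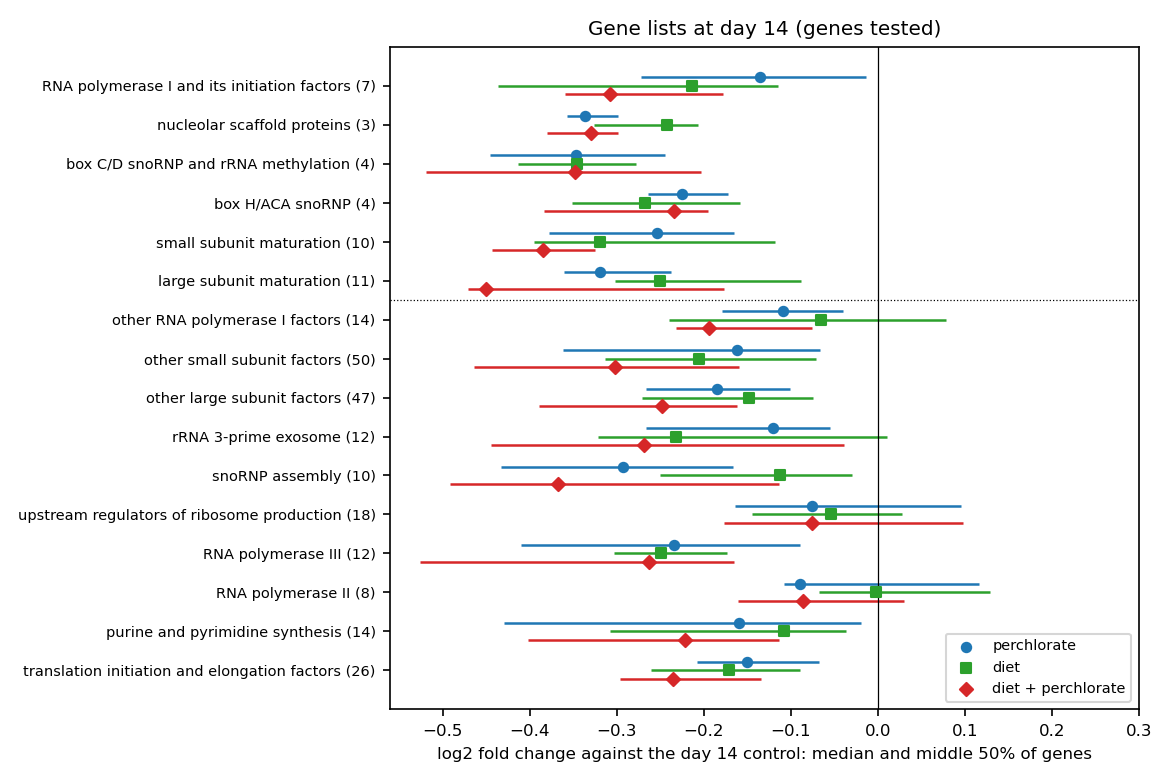
Median (marker) and middle 50% (line) of the log2 fold changes against the day 14 controls for 6 groups of the set, above the dotted line, and 10 other gene lists, with the number of genes tested in brackets. The 6 groups have medians from -0.14 to -0.45, and RNA polymerase II and the upstream regulators lie nearest to 0.

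The promoters of the set were searched for the E-box CACGTG, the motif bound by MYC and related factors, which reads the same on both strands. The RefSeq table for GRCr8 held the 300 bases from 250 before to 50 after the start for 37 of the 40 genes, Npm1 included. Wdr43, Rrs1 and Bop1 had no entry. The E-box was present in 11 of 37, or 29.7%, against 7.02% of 21851 promoters of coding genes and 6.42% of all 33469. These promoters were also richer in G and C, with a median of 59.3% against 55.0% in coding genes, and in CpG pairs, with a median of 24 against 11, and the E-box holds a CpG. The longer motif named for the factor NRF1, searched as GCGCA followed directly by TGCGC and also the same on both strands, was in 1 of 37, that of Npm1, against 1.08% of coding promoters. A match describes the letters only and shows no binding.

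The 11 sites are printed with the E-box in capitals and 10 bases on each side where the window allows, in the sense of the gene for the 11 genes that hold it, to show where in the window it lies. The other 26 of the 37 promoters lack it, and the difference from coding promoters was not tested. Those of Gnl3, Dkc1, Ltv1, Rrp1 and Pes1 lie before the start, and those of Fbl, Nop2, Rrp12, Tsr1, Bysl and Ebna1bp2 just after it.
Gnl3: ttccagttcgCACGTGgcgcccgaga
Dkc1: cgtcccggcgCACGTGcgggccccac
Ltv1: cctgtctaccCACGTGtagagctgcc
Rrp1: gcgtgacgcaCACGTGtcgtcactcg
Pes1: ctaagcggggCACGTGcggtaggaag
Fbl: cgcttttttcCACGTGtgaaagcctg
Nop2: tccccaagtgCACGTGgagcgg
Rrp12: tgagaatacaCACGTGggttctgctg
Tsr1: ttactcggtgCACGTGggcagttaga
Bysl: gccggcttcaCACGTGtaaactttgt
Ebna1bp2: gtcttgctggCACGTGgagtggcagc
Of the 5 genes called at day 14, Nop2, Dkc1 and Pes1 hold the motif in this window, and Polr1b and Rrp1b do not. Ltv1 and Rrp1, which also hold it, were among the genes nearest to 0 with both treatments.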

How the data were processed

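Thyroid RNA of 24 samples from rats was measured on Affymetrix arrays. The authors deposited 1 linear intensity per probe set and sample, made with GCOS, per the submitters' processing notes; its version, settings and scaling target are not given in the sources used here, and signal over background per probe set is unknown. The table held 31099 probe sets, and 57 controls were left out. Every column matched 1 sample's title. The intensities were turned into log2(intensity + 16), which understates changes of dim probe sets. The deposited array medians ran from 6.63 to 7.19 on this log2 scale, so arrays were quantile normalized. Probe sets under the 40th percentile of mean signal (log2 of 6.19) were left out, and 18625 of 31042 were fitted with limma 3.58.1 (R 4.3.3): 1 mean per group over all 24 arrays, eBayes with a mean-variance trend, two-sided, Benjamini-Hochberg adjustment over all 18625 probe sets in each of 13 contrasts and in the overall F test. The script was tested on simulated data. SD is over the 3 arrays of a group, SE is that of limma's fold change. Precision is limited by the number of arrays.

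Symbols come from the platform annotation (20826 probe sets with 1 symbol, 436 with several, 9780 with none), and all 55 of the gene set matched RefSeq by Entrez number with 0 changed. The genes and lists were chosen with earlier results of these data known. Values of every array are given for genes called in any contrast and for the 3 largest rises and 3 largest falls with perchlorate and with the diet at day 14. Of other lists up to 4 called genes are named, or the 1 with the smallest p where none was called. Mycn was named after its value was seen. Alternatives were the values as deposited, median centring, other pseudocounts and filters, array weights, a fit of only the groups compared, the mean over a gene's probe sets, and leaving out arrays. Promoter sequences are from RefSeq, assembly GRCr8.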

Additional observations from a re-analysis of the deposited data

Results flagged for a closer look

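Results are given here where a treatment's difference from the controls was not alike on the 2 days. By limma's test of the perchlorate fold change at day 14 less that at day 1, Rrp7a was lower (-1.15, SE 0.25, adjusted p = 0.0417). By the same test 3 marker genes were higher: Fbn1 (1.97, adjusted p = 0.0101) and Col3a1 (1.35, adjusted p = 0.00752), both of the fibroblast list, and Mrc1 of the macrophage and mast cell list (1.54, adjusted p = 0.0316). Over all probe sets 0.553% were called in this test. The day 1 perchlorate group holds the array that stood apart, and the differences of Rrp7a and these marker genes were not tested without that array.

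The 11 genes of the set described array by array were each looked at with the 3 treatments. Many had been chosen for their day 14 values, and the share of all probe sets that meet this rule was not counted. Of the 11 genes, 3 had all treated arrays on one side of the control mean at day 1 and on the other at day 14. For each of these 3, the arrays overlapped the single controls on either day 1 or day 14. With perchlorate Dkc1 lay at 0.03 to 0.61 at day 1 and -0.45 to -0.28 at day 14, a difference between the days of -0.63 that missed the threshold in limma (adjusted p = 0.416). The 0.61 is that of sample 18, which stood apart. With both treatments Ubtf lay at 0.25 to 0.75 at day 1 and -0.54 to -0.15 at day 14, a difference of -0.80 that was not tested. Its other tested probe sets overlapped the controls on both days, so this pattern rests on the brightest one. With the diet Ltv1 lay at -0.66 to -0.21 at day 1 and 0.05 to 0.61 at day 14, a difference of 0.81 that was not tested.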

How the results depend on the processing

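In all, 67 results were set against alternatives in 1195 comparisons, of which 1072 were taken as alike. These kept their direction and side of the threshold or moved within the replicate spread. A count of genes was also taken as alike when it changed by no more than a preset factor. Of the rest, 62 moved, 32 lost and 12 gained a call, and 17 changed sign. The calls of Polr1b and Rrp1b with both treatments at day 14 held in all 17 alternatives. On the values as deposited, the median of the 39 genes was 0.10 with the diet at day 1, -0.10 at day 14 and -0.000801 over both days, -0.00702 with both at day 1, -0.22 for perchlorate added to the diet at day 14 and -0.0717 for the interaction. Genes called numbered 0 with the diet and 1 with perchlorate at day 14, 2 with both, and 1 for day 14 less day 1 of the perchlorate fold change. Genes below the controls without overlap numbered 0 with the diet, 2 with perchlorate and 1 with both at day 1, and 6 and 9 with the diet and perchlorate at day 14. With arrays centred on their medians, 2 genes were called with the diet over both days, and 2 and 5 lay below the day 1 controls without overlap with the diet and with both. With array weights, genes called numbered 4 with the diet at day 14, 4 over both days, 1 with both at day 1, 17 with both at day 14, 1 for perchlorate added to the diet at day 14 and 13 in the overall test, where 4.91%, 7.19%, 3.64%, 23.5%, 5.16% and 26.5% of all probe sets were called. Without samples 18 and 22 they numbered 2, 2, 2 and 15 for the first 4 of these and 7 in the overall test (1.19%, 2.18%, 1.83%, 17.7% and 14.4% of all), and 8 genes each lay below the day 1 controls without overlap with the diet and with perchlorate (12% and 17% of all). A fit of only the groups compared called 12 with both at day 14 and 1 for perchlorate added to the diet (17.2% and 1.83% of all), and no filter on dim probe sets called 3 with both at day 14 (4.85% of all). The mean over a gene's probe sets called 1 with perchlorate at day 14 and 1 in the overall test. Counts printed here without a share of all probe sets show only how the count moved, since that share can move as well. The cause of these shifts was not tested.

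Leaving out 1 array at a time, genes called ran from 0 to 1 with the diet, 1 to 2 with perchlorate and 2 to 4 with both at day 14, 0 to 2 with the diet over both days, and 2 to 6 in the overall test, where leaving out sample 15, 16 or 18 gave 4, 6 and 6. Without diet sample 33 the count over both days was 0, and without control sample 47 it was 2. These counts of calls are printed without the share of all probe sets and are read only as changes in the count. At day 1 genes below the controls without overlap ran from 5 to 13 with the diet (13 without sample 8, 8 without sample 22). They ran from 5 to 8 with perchlorate (8 without sample 15, 7 without sample 18). With both they ran from 10 to 20 (20 without sample 6, 18 without sample 21). With all arrays these counts were 5, 4 and 10. Leaving out an array makes overlap less likely for any probe set, in the set or not. These counts too lack the share of all probe sets here and are read only as changes in the count. The medians ran from -0.0921 to 0.11 with perchlorate and -0.34 to -0.11 with both at day 1, -0.25 to -0.0738 for perchlorate added to the diet at day 1 (the last without sample 3), and -0.34 to -0.14 for day 14 less day 1 of the perchlorate fold change (the first without sample 16). Fold changes that changed sign were near 0 and not called. At day 14 Polr1c ran from -0.0253 to 0.18 and Rrp1 from -0.0838 to 0.27 with the diet. With perchlorate Rrp12 ran from -0.15 to 0.21, Ltv1 from -0.19 to 0.23 and Rrp1 from -0.32 to 0.22. With both Ltv1 ran from -0.25 to 0.16 and Rrp1 from -0.26 to 0.0856. Over a gene's probe sets Rrp12 was -0.27 with perchlorate, and as deposited Ltv1 was 0.0878 and Rrp1 0.00656.

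No paired analysis was possible because the sample numbers in the titles differ between all groups. With 3 arrays a group, only large or uniform differences pass a test adjusted over 18625 probe sets, and the array's signal over background is unknown.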
